A study of Rattus norvegicus with 67 samples.

Results

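The region described is the large olfactory receptor cluster of rat chromosome 3, taken as each window of 1000 bp from 72500001 to 77500000 (Rnor 6.0). The values are counts of sperm DNA fragments precipitated with an antibody against histone H3. No input library was used here, so retention is not separated from background, copy number or how well reads map. The interval holds 5000 windows out of 177700 on chromosome 3 and 2782040 in the whole table, and the rule that defines them uses position and no measured value. Sperm came from F3 generation male Sprague Dawley rats of 1 year, the great-grand-offspring of F0 gestating females that received atrazine, a herbicide, at 25 mg/kg or the vehicle dimethyl sulfoxide (DMSO) on days 8 to 14 of gestation. Counts were analysed for 66 animals, 50 of the atrazine lineage and 16 of the control lineage. The atrazine lineage animals fell into 19 without disease, 5 with the lean phenotype, 3 with kidney disease, 4 with testis disease, 5 with late puberty and 14 with multiple disease. The control lineage animals fell into 9 without disease, 3 obese, 1 with late puberty, 1 with kidney disease and 2 with multiple disease. The disease comparisons used the 17 atrazine lineage animals without disease that the study's own disease tables hold, and the lineage comparison used all 66 animals. Titles and lineage tags set the groups, while a separate treatment tag contradicts them for all 16 control lineage animals and for 13 atrazine lineage animals (M57 to M69). All animals were of an outbred strain, the methods speak of sperm pools although the counts are per animal, and the labels name a pan antibody for histone H3 while the methods also name a form of it with methylated lysine.

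During spermatogenesis most histones are replaced by protamines, small basic proteins that pack the DNA of the sperm head, and histone retention is the share that stays behind. Olfactory receptors are G protein-coupled receptors that bind odorants at the cilia of olfactory neurons, each neuron expresses a single receptor gene from a single allele, and the genes lie in large tandem clusters that are silent in most other cells. Their promoters are known to be rich in A and T and poor in CpG, and to carry sites for homeodomain and Ebf factors.

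Since no full gene annotation of Rnor 6.0 was used here, the genes of the receptor block were read from the order of RefSeq genes in the later build GRCr8, without transferring positions. From the first to the last receptor gene between Rtn4rl2 (a Nogo receptor family member) and Fam180b, RefSeq lists 342 genes. Of these, 230 are protein-coding receptor genes, 80 are receptor genes of other types, mostly pseudogenes, and 9 are other protein-coding genes. The block holds 18% of the 1279 protein-coding receptor genes of this genome. The ends of the block were not placed in Rnor 6.0, so how many of its genes lie in the interval is not known. Olr613, at 76341001, is only number 130 of the 230 in order, so part of the block may lie beyond the interval. The study's lists of regions called for histone retention, which name genes at those Rnor 6.0 positions only, give Olr493, Olr505, Olr532, Olr533, Olr596 and Olr613 to windows of the interval, so that receptor genes lie in it. Its lists of regions called for DNA methylation were not read for gene names, so the 6 are not all the receptor genes that the study names there. The order of these genes is not fully the same in both builds, since Olr493 lies before Olr505 in GRCr8 and after it in Rnor 6.0.

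Promoter sequences, from 250 bases before to 50 bases after the gene start, were found for 195 of the 230 receptor genes of the block, whether or not these lie in the interval. Their median GC content was 31.7%, against 51.7% over all 33469 promoters and 36% over the 890 promoters of receptor genes elsewhere. The median number of CpG sites was 1, against 7 over all promoters, and 39.5% had none, against 5.47%, while receptor genes elsewhere also had a median of 1 and 28.3% of them had none. The homeodomain core TAATTA, searched on both strands, was in 27.2% of these promoters, in 17.4% of those of receptor genes elsewhere and in 5.36% of all promoters. A match to these letters is a description and not a site. Most models of these receptor genes hold the coding sequence alone (93.9% have a length that is a multiple of 3). In these the first 250 bases lie before the start codon rather than before a measured transcript start, and the last 50 are coding. The study's lists of regions called for histone retention give 6 receptor genes to regions of the interval that hold windows described further on. The promoters of these 6 genes are given with CpG sites in capitals (RefSeq, GRCr8, 5′ to 3′ on the gene's strand).
Olr493 (Or8k23): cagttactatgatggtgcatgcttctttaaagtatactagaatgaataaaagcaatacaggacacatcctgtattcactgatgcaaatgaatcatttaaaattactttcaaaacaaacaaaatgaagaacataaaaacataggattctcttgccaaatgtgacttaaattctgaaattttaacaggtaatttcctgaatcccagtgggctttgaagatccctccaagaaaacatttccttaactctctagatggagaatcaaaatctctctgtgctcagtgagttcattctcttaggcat
Olr505 (Or8k31): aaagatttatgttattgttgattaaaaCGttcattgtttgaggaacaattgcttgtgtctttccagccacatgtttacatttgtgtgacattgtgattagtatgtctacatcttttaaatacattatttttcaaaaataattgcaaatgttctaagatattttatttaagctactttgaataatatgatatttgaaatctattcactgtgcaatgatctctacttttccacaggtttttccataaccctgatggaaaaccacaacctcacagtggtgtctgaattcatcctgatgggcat
Olr532 (Or8h10b): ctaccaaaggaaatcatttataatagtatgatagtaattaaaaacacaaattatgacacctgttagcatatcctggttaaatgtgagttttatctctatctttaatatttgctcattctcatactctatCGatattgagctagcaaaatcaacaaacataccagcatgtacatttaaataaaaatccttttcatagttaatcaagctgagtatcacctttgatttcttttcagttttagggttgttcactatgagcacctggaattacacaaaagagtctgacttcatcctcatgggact
Olr533 (Or5t16): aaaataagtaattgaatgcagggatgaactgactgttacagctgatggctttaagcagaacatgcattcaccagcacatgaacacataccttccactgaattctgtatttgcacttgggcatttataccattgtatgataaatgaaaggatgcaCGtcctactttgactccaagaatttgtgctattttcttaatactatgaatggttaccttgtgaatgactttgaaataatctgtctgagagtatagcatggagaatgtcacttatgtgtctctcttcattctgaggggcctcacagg
Olr596 (Or5w8): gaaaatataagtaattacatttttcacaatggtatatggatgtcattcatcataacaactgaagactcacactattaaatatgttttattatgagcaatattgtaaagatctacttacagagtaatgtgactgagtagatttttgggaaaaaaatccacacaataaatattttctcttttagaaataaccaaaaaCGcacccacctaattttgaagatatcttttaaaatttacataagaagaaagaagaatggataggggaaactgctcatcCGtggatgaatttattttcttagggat
Olr613 (Or5w8b): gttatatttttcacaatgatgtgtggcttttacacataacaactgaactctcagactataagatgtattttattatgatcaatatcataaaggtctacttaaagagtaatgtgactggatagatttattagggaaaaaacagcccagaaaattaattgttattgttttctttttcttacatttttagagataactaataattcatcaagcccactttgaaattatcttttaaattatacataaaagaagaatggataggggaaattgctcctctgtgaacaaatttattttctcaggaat
Olr493 and Olr613 hold no CpG site in this stretch, Olr505, Olr532 and Olr533 hold 1 each and Olr596 holds 2, of which 1 lies in the last 50 bases. Their GC content runs from 27.7% in Olr613 to 38.3% in Olr533. The GC content of the windows themselves was not computed, because no genome of this build was at hand.

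The first question was whether the cluster as a whole had a higher or lower level of these reads than the rest of its chromosome. It did not differ detectably. The mean over the 5000 windows was 0.369 ± 0.0388 reads per 1000000 reads of the animal's total (RPM) per window (SD, n = 66 animals) and that of the other 172700 windows of chromosome 3 was 0.368 ± 0.00547. The log2 ratio of the 2 levels had a mean of -0.01 ± 0.19 (SD, n = 66), and 44 of 66 animals had a ratio above 0 (two-sided sign-flip permutation test, p = 0.825). The sign of this small difference depended on the windows taken. Over windows that averaged 10 reads or more the ratio was 0.06 (p = 0.0124, same permutation test), and against the 5 Mb on either side in place of the rest of the chromosome it was -0.05 (p = 0.00688, same permutation test). The values are shares of each library, so a lower level in the cluster and a higher level elsewhere cannot be told apart.

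Single windows were more unequal in the cluster than elsewhere on chromosome 3. The median window had a mean of 0.383 RPM, against 0.386 RPM for the rest, but the quartiles were 0.319 and 0.412 in the cluster and 0.351 and 0.407 in the rest. Windows within 25% of the chromosome 3 median, 0.387 RPM, made up 66.9% of the cluster and 80.2% of the rest. No read in any of the 66 animals was found in 293 windows, 5.86% of the cluster, against 3.71% of the rest. The excess lay in 1 run of windows, since without the longest run of each part the shares were 3.01% (146 of 4853) and 3.63% (6266 of 172551). A level above 1.5 times the median was found in 391 windows, 7.82% of the cluster, against 3.31% of the rest. Above 5 times the median there was 1 window of the cluster, 0.02%, at 2.36 RPM, and 114 windows of the rest, 0.066%.

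**Figure D1:**
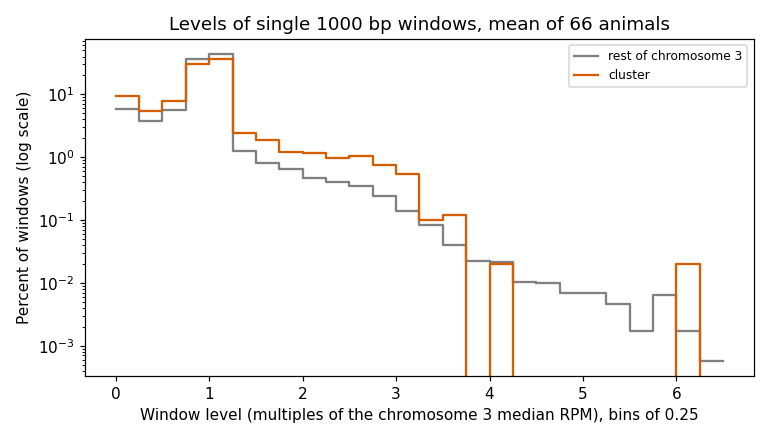
Percent of 1000 bp windows (y axis, log scale) by their level, the mean RPM of 66 animals as a multiple of the chromosome 3 median (x axis, bins of 0.25), for the cluster (orange) and the rest of chromosome 3 (grey). The cluster lies above the rest below 0.75 and between 1.5 and 3.5 times the median and below it near 1, and windows of the rest above 6.5 times the median are not drawn.

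The same shares were then taken within each animal. The share of windows below 0.5 times the animal's own chromosome 3 median was 16.6% in the median animal (12.7% to 47.3%) for the cluster and 12.4% (9.69% to 31.5%) for the rest. It was higher in the cluster in 66 of 66 animals, by 5.46 ± 4.73 percentage points (SD). The share of windows above 1.5 times that median was 15.05% in the median animal for the cluster and 10.4% for the rest, and was higher in the cluster in 60 of 66 animals, by 3.71 ± 4.86 percentage points (SD). Windows without any read made up 7.48% of the cluster in the median animal and 4.62% of the rest, with a higher share in 66 of 66 animals. The windows empty in every animal enter each of these shares, and all libraries were mapped to the same reference, so no test over animals is given. Over the windows with a read in some animal, a count chosen after the values were seen, the share below 0.5 times the median was 11.4% in the cluster and 9.02% in the rest (higher in the cluster in 59 of 66 animals), that above 1.5 times was 15.99% and 10.8% (60 of 66), and that without a read was 1.72% and 0.943% (66 of 66).

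The windows without reads and the windows of high level each came in runs. The 293 windows without reads lay in 30 runs, of which the longest covered 147 kb from 74079001 to 74226000 and the next 20 kb from 75189001 to 75209000. The rest of the chromosome had a run of 149 kb and 8.11 runs per Mb, against 6.00 per Mb in the cluster. An absence of mapped reads in every animal says that no read was assigned there and not that no histone was retained, since any filter on reads with several matches at the counting step is not given in the sources used here. The 391 windows above 1.5 times the median lay in 108 runs, or 21.6 runs per Mb against 10.2 per Mb in the rest of the chromosome. Of these, 32 runs had 6 to 9 windows, 6.40 per Mb against 1.53 per Mb elsewhere. The longest ran over 19 kb from 75002001 to 75021000 at 0.752 ± 0.113 RPM (SD, n = 66), 1.94 times the median.

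Most of the other long runs were higher and narrower. The 8 kb from 77465001 to 77473000 had a mean of 1.22 ± 0.348 RPM, with a lowest animal of 0.985, a median of 1.17 and a highest of 3.80. The 9 kb from 72918001 to 72927000 had 1.11 ± 0.252 RPM (lowest 0.903, median 1.08, highest 3.02). The 8 kb from 75421001 to 75429000 had 1.02 ± 0.0836 RPM, and here the animals lay between 0.85 and 1.27. In each of these 3 runs the lowest animal was above 2 times the chromosome median of 0.387 RPM, so the elevation was common to all 66 animals and was not carried by the highest ones. This did not hold for every long run. The lowest animal had 0.178 RPM in the 19 kb from 75002001 and 0.161 RPM in the 8 kb from 72808001 to 72816000, both below that median.

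The 3 windows with the highest mean level differed in how far single animals carried them. The window from 77471001 to 77472000 had 2.36 ± 2.23 RPM (SD, n = 66), from 1.23 through a median of 1.96 to 18.9 in M48, an atrazine lineage animal with multiple disease. The window from 75827001 to 75828000 had 1.58 ± 1.35 RPM, from 0.703 through 1.30 to 11.8, again in M48. The window from 75307001 to 75308000 had 1.43 ± 0.321 RPM, from 0.298 through 1.43 to 2.09 in M25. M48 was far above the median in the first 2 windows, whereas in the third the animals spread on both sides of the median. The 3 lowest windows with any read held 1, 1 and 2 reads over all 66 animals, at 74652001, 75209001 and 77329001.

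Along the interval, in bins of 100 kb, levels ran from 0 to 0.558 RPM with an SD between bins of 0.106 (50 bins), against 0.0870 over the 1727 bins of the rest. The bin from 74100001 to 74200000 had no read at all. The lowest of the others, from 77200001 to 77300000, had 0.139 ± 0.0135 RPM, and that from 74800001 to 74900000 had 0.173 ± 0.0222. The highest, from 75300001 to 75400000, had 0.558 ± 0.0464 RPM, and the median of its single windows was 0.414 RPM, so that part of its windows lay well above the others. The highest animal of the bin at 77200001 (0.165) was below the lowest animal of the bin at 75300001 (0.399). M48 had its highest bin elsewhere, at 77400001 with 0.776 RPM, against 0.417 in the bin at 75300001.

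**Figure D2:**
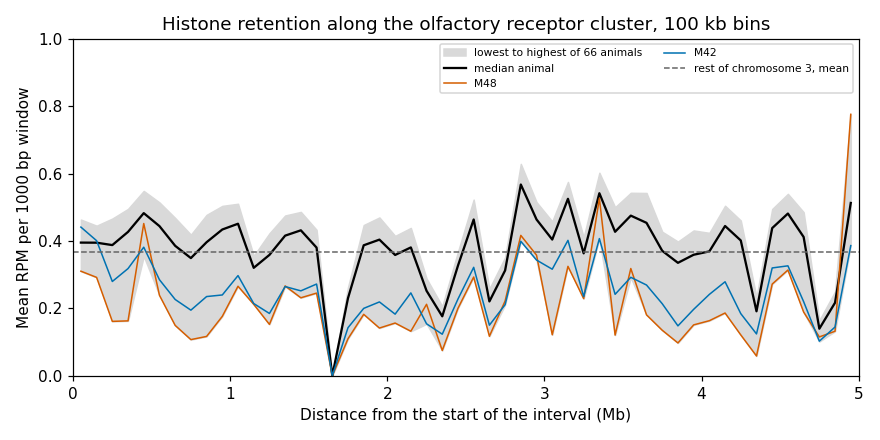
Mean RPM per 1000 bp window (y axis) in 100 kb bins against the distance from the start of the interval (x axis, Mb). The black line is the median animal, the grey band runs from the lowest to the highest of 66 animals, coloured lines are M48 and M42, and the dashed line is the mean of the rest of chromosome 3, 0.368 RPM. Levels fell to 0 at 1.6 to 1.7 Mb and were highest, 0.558 RPM on average, at 2.8 to 2.9 Mb.

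A few animals had a level far below the others over the whole interval. The log2 ratio of the cluster to the rest of chromosome 3 was -0.91 in M48 (multiple disease), -0.58 in M42 and -0.54 in M28 (both lean phenotype), -0.39 in M17 (control lineage, multiple disease) and -0.36 in M22 (atrazine lineage, no disease). The next lowest was -0.19 in M44, the median was 0.06 and the highest was 0.18 in M2. The labels of M48 (late puberty, testis, kidney and lean) and M17 (kidney and lean) also name the lean phenotype. The other multiple disease animals whose labels name it lay between -0.01 (M57) and 0.10 (M61). In RPM, M48 had 0.214 per window of the cluster against 0.401 for the rest of chromosome 3, M42 had 0.25 against 0.372 and M28 had 0.262 against 0.381. The total counts of M48 (20151792) and M28 (26487836) were near the low end of the range over all animals, 19909382 to 239635003, whereas those of M42 (59007697), M17 (47418261) and M22 (71916679) were not. The cluster itself held between 21576 and 468319 reads per animal, so counting error of the cluster's level was small beside these differences.

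The low level was spread over the interval. Of the 49 bins of 100 kb with reads, M48 was below the median animal in 48, M42 in 48, M28 in 49, M17 in 47 and M22 in 48. The median deviation over the bins was -1.04 in M48, -0.65 in M42 and -0.62 in M28 (log2). M48 was the most uneven, from -1.96 in 1 bin to 0.46 in another, while M42 lay between -1.20 and 0.14 and M28 between -0.94 and 0.00.

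**Figure D3:**
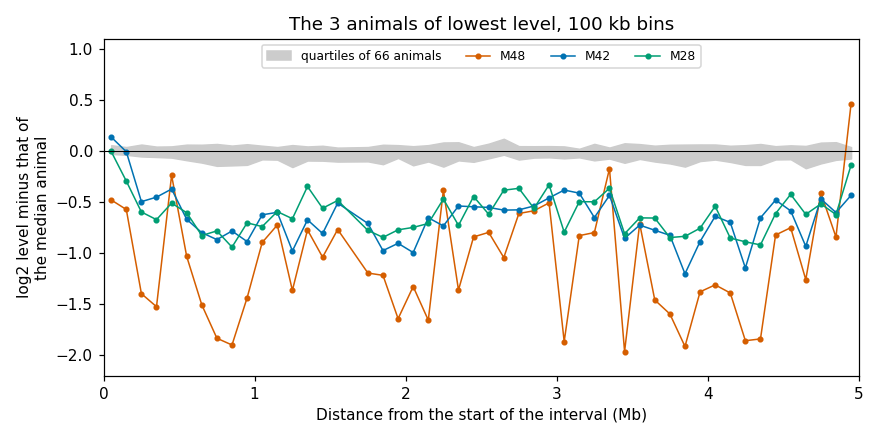
Level of each 100 kb bin relative to the rest of chromosome 3, as the log2 difference from the median animal (y axis), against the distance from the start of the interval (x axis, Mb), for M48, M42 and M28. The grey band holds the quartiles of 66 animals. M42 and M28 lay below the band in most bins, with medians of -0.65 and -0.62, but not in the first, and M48 moved between -1.96 and 0.46.

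Whether the low animals were particular to this region was asked of the other autosomes. Levels of 470 blocks of 5 Mb outside chromosome 3 were reduced to their leading component, which held 90.1% of the variance between animals. The cluster's log2 ratio followed the score on this component with r = 0.979 and rho = 0.983 (66 animals, permutation p = 1e-05 for each, the smallest that 100000 draws can give, and the only relation tested). Without the 2 animals farthest out, M28 and M48, r was 0.985 (permutation p = 1e-05, n = 64), and without the 5 lowest animals it was 0.979 (n = 61). The low animals were not in the same order on both. M42 had a score of -5.89 and a log2 ratio of -0.58, M28 had -8.10 and -0.54. M17 had a score of -3.93 and a log2 ratio of -0.39, M22 had -4.98 and -0.36. On the component, 276 blocks loaded with the sign of the cluster and 194 with the opposite sign. The SD between animals of the cluster's block was 0.18 (log2 of its level over all autosomes), above the median block (0.11), and 93 of 505 autosomal blocks (18.4%), 5 of the 35 on chromosome 3 among them, had an SD at least as large. What sets this component was not tested.

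**Figure D4:**
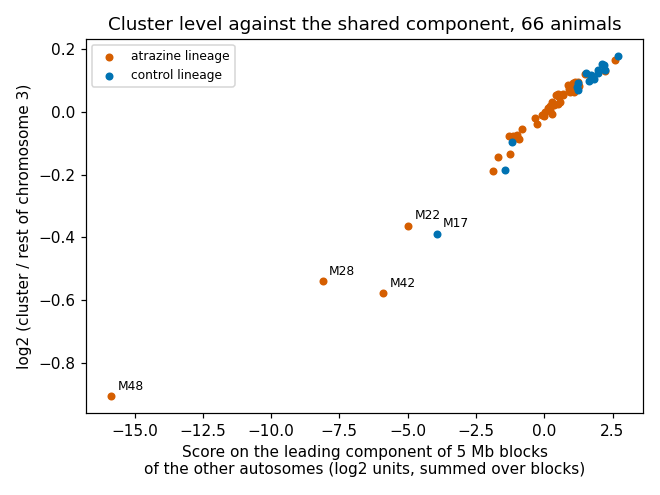
Log2 ratio of the cluster to the rest of chromosome 3 (y axis) against the score on the leading component of 470 blocks of other autosomes (x axis, summed log2 units) for 66 animals, coloured by lineage. The points lie near 1 line (r = 0.979), and M48, M28, M42, M22 and M17 lie apart at the low end. M42 has a lower ratio than M28 at a higher score.

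M48 also had windows raised far above the other animals, and these were scarcer in the cluster than elsewhere. A raised window was defined as at least 10 reads and at least 4 times the median animal, each relative to its own chromosome 3 median. Where the median animal lay below its chromosome 3 median, 4 times that median was required instead. This bound is stricter for low windows, and those below 0.5 times the median made up 14.9% of the cluster and 9.59% of the rest. Its effect on the shares was not tested. M48 had 156 raised windows in the cluster, 3.12% (exact 95% binomial interval 2.66% to 3.64%, counting error only, with neighbouring windows taken as independent), against 14.1% of the rest of chromosome 3 and 11.3% of the 5 Mb on either side. They lay in 115 runs, 84 of them of a single window, and each of the 5 Mb of the interval held between 20 and 41. By the multiple of the median animal, 22.6, the strongest was the window from 77238001 to 77239000, where M48 had 106 reads (5.26 RPM) and the other 65 animals had between 0.131 and 1.70 RPM with a median of 0.432. M28 had 4 such windows, 0.08% of the cluster, against 0.522% of the rest. The other 64 animals together had 0 in the cluster and at most 3 each in the rest of the chromosome.

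The spread between animals in single windows was a little larger in the cluster than in the rest of the chromosome. Spread is given as overdispersion, the squared coefficient of variation between animals beyond counting error, for windows that averaged 10 reads or more (4408 of 5000 in the cluster and 159493 of 172700 in the rest). Its median was 0.0388 in the cluster, a coefficient of variation of 19.7%, and 0.0341 in the rest, or 18.5%. The ratio of the medians was 1.14 ± 0.0628 (jackknife SE over 66 animals) and had no test of its own. The 95th percentiles were 0.0950 and 0.0921 and the 99th percentiles 0.126 and 0.166. Without M28 and M48 the order of the 99th percentiles turned, with 0.115 in the cluster and 0.105 in the rest. In bins of 10 kb that averaged 100 reads or more, where counting error is smaller, the medians were 0.0144 and 0.00930, a ratio of 1.54. When each animal was scaled to its own total in the cluster or in the rest, an alternative chosen after the values were seen, the ratio turned to 0.847, with medians of 0.0288 and 0.0340.

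Of the 450 bins of 10 kb in the cluster that averaged 100 reads or more, the 5 with the largest overdispersion began at 73250001, 74370001, 76240001, 76340001 and 76510001. The bin at 73250001 stood apart with 0.0959, a coefficient of variation of 31%. Its level ran from 0.0695 RPM in M48 and 0.0793 in M28 through a median of 0.205 to 0.375 in M63, and the 17 animals without disease had 0.200 ± 0.0423 RPM (0.115 to 0.274) against 0.214 ± 0.0696 (0.128 to 0.354) in the 16 control lineage animals. Values were thus spread on both sides of the median, and the 2 groups overlapped over most of their range. The other 4 bins had overdispersions from 0.0396 to 0.0419, just above the sixth bin at 0.0389, and in each of them M42 and M48 were the 2 lowest animals, as in the bin at 76340001 with 0.0546 RPM in M48 and 0.0915 in M42 against a median of 0.401. In the rest of the chromosome, 5.56% of the 16440 bins that passed the same filter had an overdispersion as large as the fifth of these.

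The level of the whole cluster was then compared between groups, to ask whether ancestral atrazine or any disease moved it. No comparison passed the threshold after adjustment over the 6. The lean phenotype animals had log2 ratios of -0.54 (M28), -0.58 (M42), -0.08 (M54), -0.02 (M56) and 0.13 (M66), against 0.00 ± 0.12 (lowest -0.36, median 0.05, highest 0.17) in the 17 animals without disease. The values of M28 and M42 were below all 17, those of M54, M56 and M66 were within their range. The mean of the lean animals was lower by 0.22 on the log2 scale (exact two-sided permutation test, p = 0.0480, adjusted p = 0.282), and without M28 and M42, the pair chosen after their values were seen, the difference was 0.01 (exact permutation p = 0.940). After regression on the leading component of the other autosomes, also chosen after the values were seen, the lean difference was -0.04 (exact permutation p = 0.217).

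The atrazine lineage as a whole lay lower than the control lineage, within the spread of both. Its 50 animals had log2 ratios from -0.91 through a median of 0.03 to 0.17, and the 16 control lineage animals from -0.39 through a median of 0.11 to 0.18. The means were -0.03 ± 0.19 and 0.06 ± 0.15, a difference of -0.08 (two-sided permutation test with 100000 draws, p = 0.0941, adjusted p = 0.282), and 46 of 50 atrazine lineage animals were below the median of the control lineage. Without M57 to M69, whose treatment tag contradicts their lineage, the difference was -0.12 (permutation p = 0.0187, adjusted p = 0.112), against the 5 Mb on either side it was -0.03 (permutation p = 0.465, adjusted p = 0.851), and without M28 and M48 it was -0.05 (permutation p = 0.164, adjusted p = 0.491). Between the animals without disease of both lineages it was -0.06 (permutation p = 0.228, adjusted p = 0.684). The residual after regression on the leading component differed by 0.01 in the opposite direction (permutation p = 0.282).

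In the remaining diseases the cluster stayed close to the animals without disease. The kidney disease animals had log2 ratios of -0.05 (M23), 0.05 (M60) and 0.12 (M64), a mean difference of 0.04 (exact permutation p = 0.709, adjusted p = 0.851). The testis disease animals had 0.05 (M29), 0.07 (M32), 0.07 (M33) and -0.04 (M41), a difference of 0.03 (exact permutation p = 0.667, adjusted p = 0.851). The late puberty animals had 0.03 (M35), 0.06 (M36), 0.08 (M38), -0.08 (M50) and -0.01 (M51), a difference of 0.01 (exact permutation p = 0.904, adjusted p = 0.904). All values of these 3 groups lay within the range of the 17. After regression on the leading component, chosen after the values were seen, the kidney disease difference was 0.019 (exact permutation p = 0.0474, adjusted p = 0.144). That of testis disease was 0.0046 (exact permutation p = 0.601) and that of late puberty 0.0046 (exact permutation p = 0.575). The 14 multiple disease animals ran from -0.91 (M48) through a median of 0.02 to 0.10, a difference of -0.06 (permutation p = 0.512, adjusted p = 0.851), which was 0.01 without M48 (permutation p = 0.863).

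**Figure D5:**
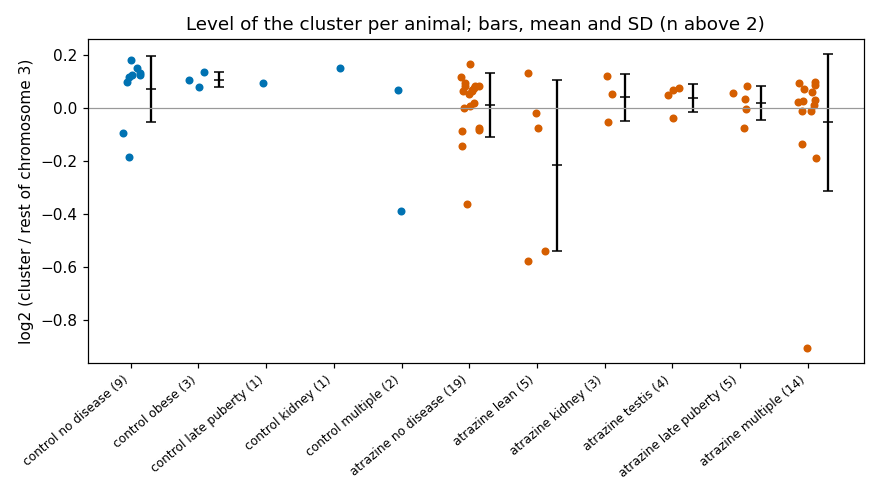
Log2 ratio of the cluster to the rest of chromosome 3 (y axis) for each of 66 animals, 1 point per animal, by lineage and disease (x axis, number of animals in brackets). Bars give the mean and SD of groups with more than 2 animals. M48, M42, M28, M17 and M22 lie between -0.91 and -0.36, in 4 different groups. The labels of M48 and M17 name the lean phenotype among their diseases.

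Differences in single windows were tested with edgeR's quasi-likelihood test over all windows that averaged 10 reads or more. At the study's threshold of p below 0.0001, the lean comparison called 2 of 4230 windows of the cluster, 0.0473%, where 0.0403% of all windows and 0.0351% of the rest of chromosome 3 were called. Late puberty called 1 of 4356 windows, 0.0230% against 0.00355% of all windows and 0.0107% of the rest of chromosome 3. The other comparisons called 0 windows of the cluster, with backgrounds of 0.0136% (lineage), 0.00235% (kidney disease), 0.00533% (testis disease) and 0.00141% (multiple disease). With edgeR's exact test the counts were 5 for the lean phenotype, 1 each for kidney disease and late puberty and 0 for the others. Over all tested windows of chromosome 3 that test called 0.104% for the lean phenotype, 0.00184% for kidney disease, 0.0154% for late puberty, 0.0262% for the lineage, 0.00614% for testis disease and 0.00743% for multiple disease. With DESeq2 they were 2 for the lean phenotype, 2 for late puberty and 0 for the others, where its calls over chromosome 3 were 0.0671% for the lean phenotype, 0.00737% for late puberty, 0.0283% for the lineage, 0.000613% for kidney disease, 0.00307% for testis disease and 0.00706% for multiple disease. After Benjamini-Hochberg adjustment over all windows, no window of the cluster was below 0.05 in any of the 6 comparisons, where 0.000121% of all windows passed in the lineage comparison, 4.07e-05% in testis disease and 0% in the others. With all 5 lean animals the lean share is near its background, and the late puberty share is that of a single window.

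The 2 windows called for the lean phenotype were both lower (0.0230% of all windows were lower at this threshold) and the study's lists of called regions name receptor genes at both. These lists cover called regions alone, so the share of all windows of the cluster at a receptor gene was not computed. The study called them from these same libraries, so a receptor name at a called window is no separate evidence. Whether a window overlaps the gene named was not examined. The window from 74576001 to 74577000 lies in the region given to Olr532 and Olr533. It had 0 RPM in M28 (0 reads), 0.0339 in M42 (2 reads), 0.198 in M54 (14 reads), 0.182 in M56 (5 reads) and 0.236 in M66 (8 reads). The 17 animals without disease lay between 0.262 and 0.740 RPM with a median of 0.360, so that all 5 lean animals were below all 17, as in 3 of the 4230 windows of the cluster (0.0709%) and 0.0155% of all windows. The log2 fold change was -1.56 ± 0.34 (SE) with p = 1.96e-05 (edgeR's quasi-likelihood test, adjusted p = 0.239).

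The second, from 76341001 to 76342000, is given to Olr613. It had 0.0755 RPM in M28 (2 reads), 0.0508 in M42 (3 reads), 0.184 in M54 (13 reads), 0.146 in M56 (4 reads) and 0.325 in M66 (11 reads). The animals without disease had 0.267 to 0.730 RPM (median 0.381). Here 4 of 5 lean animals were below all 17 and M66 was within their range (log2 fold change -1.37 ± 0.31, p = 3.07e-05, edgeR's quasi-likelihood test, adjusted p = 0.239). In both windows M28 and M42, the lean animals with the lowest level of the whole cluster, were also the lowest, and with either left out alone no window of the cluster was called (0 without M28, 0 without M42), where the share of the windows of chromosome 3 and 200000 random others called was 0.0158% and 0.0135%, under 1 window in a set of the cluster's size. With both left out, 1 window was called, from 75959001 to 75960000 and higher in the lean animals (log2 fold change 1.09, p = 6.25e-05, edgeR's quasi-likelihood test), where 0.00598% of the windows of chromosome 3 and 200000 random others were called.

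At p below 0.05 the lean differences were mostly in 1 direction. Of 4230 windows, 531 were lower (12.6%) and 58 were higher (1.37%), whereas over all windows 5.33% were lower and 6.05% higher. The median log2 fold change was -0.21 in the cluster and 0.01 over all windows. Neighbouring windows share their animals and are not independent, so the counts are a description. Without M28 and M42, 103 of 4306 windows were lower (2.39%) and 75 were higher (1.74%), against 2.29% and 1.69% of the windows of chromosome 3 and 200000 random others.

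The lineage comparison also had more lower than higher windows, with 244 windows lower (5.54%, against 2.56% of all windows) and 19 higher (0.431%, against 3.68%) and a median log2 fold change of -0.08 in the cluster against 0.01 over all windows. In the other diseases, at the same threshold, the counts in the 2 directions were nearer to each other. Kidney disease had 53 lower (1.21%, against 1.59% of all windows) and 61 higher (1.39%, against 1.18%). Testis disease had 55 lower (1.26%, against 2.14%) and 83 higher (1.90%, against 1.51%). Late puberty had 62 lower (1.42%, against 2.01%) and 72 higher (1.65%, against 1.48%). Multiple disease had 87 lower (2.03%, against 1.36%) and 68 higher (1.59%, against 1.94%). These 4 comparisons share the 17 animals without disease. In these 4 comparisons the median log2 fold change in the cluster was between -0.01 and 0.02.

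The window called for late puberty was higher (0.000817% of all windows were higher at this threshold). It runs from 73773001 to 73774000, which the same lists give to Olr505, and had 0.456 RPM in M35, 0.888 in M36, 0.689 in M38, 0.442 in M50 and 0.530 in M51. The 17 animals without disease lay between 0.214 and 0.451 RPM with a median of 0.322, so 4 of 5 late puberty animals were above all 17 and M50 was within their range. The log2 fold change was 0.90 ± 0.20 (SE) with p = 1.96e-05 (edgeR's quasi-likelihood test, adjusted p = 1.00). Without M36 or without M38 the window count at p below 0.0001 was 0. Over all windows fitted, those of chromosome 3 and random others, 15 of 338169 were called without M36 and 16 of 337399 without M38. At these shares a count of 0 is near the background for a set of the cluster's size.

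In the other comparisons the window of smallest p in each direction stayed above the threshold of 0.0001. For testis disease the strongest higher window runs from 74776001 to 74777000, given to Olr493, with 0.403 RPM in M29, 0.314 in M32, 0.304 in M33 and 0.326 in M41. The animals without disease had 0.0821 to 0.281 RPM with a median of 0.179, and the groups did not overlap, as in 1 of 4371 windows of the cluster in this direction (0.0229%) and 0.0117% of all windows (log2 fold change 0.99 ± 0.29, p = 0.00103, edgeR's quasi-likelihood test, adjusted p = 1.00). These values rest on 12 to 25 reads per testis disease animal. For kidney disease the strongest lower window, from 74417001 to 74418000, had 0.213 RPM in M23, 0.204 in M60 and 0.141 in M64 against 0.231 to 0.917 (median 0.438), again without overlap, as in 3 of 4380 windows of the cluster in this direction (0.0685%) and 0.0389% of all windows (log2 fold change -1.27 ± 0.31, p = 0.000101, edgeR's quasi-likelihood test, adjusted p = 1.00). The kidney disease values rest on 13 reads in M23, 22 in M60 and 4 in M64.

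The strongest lower window of the lineage comparison runs from 76031001 to 76032000, in the region given to Olr596. The 50 atrazine lineage animals had 0.117 to 0.532 RPM with a median of 0.318, and the 16 control lineage animals 0.313 to 0.615 with a median of 0.455, so the ranges overlapped (log2 fold change -0.42 ± 0.12, p = 0.000392, edgeR's quasi-likelihood test, adjusted p = 0.781). For multiple disease, the strongest lower window was at 74322001, with a median of 0.280 RPM in 14 animals against 0.476 in the 17, and the strongest higher window at 76561001, with 0.458 against 0.283. Both groups overlapped in each (p = 0.00115 and p = 0.00109, edgeR's quasi-likelihood test, adjusted p = 1.00 for both).

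The remaining windows of smallest p were in the other direction of their comparison and also stayed above the threshold. The higher window of the lean phenotype, at 77439001, had 2.83 RPM in M28 and 1.06 to 1.27 in the other 4, against 0.648 to 1.75 (median 0.772) in the 17 (p = 0.000313, adjusted p = 0.239, edgeR's quasi-likelihood test). The higher window of the lineage comparison, at 77238001, had a median of 0.461 RPM in atrazine lineage animals against 0.358 in control lineage animals, and a highest value of 5.26 in M48. The lower window of late puberty, at 72510001, had 0.221 to 0.305 RPM in the 5 animals against 0.263 to 0.686 in the 17. The higher window of kidney disease, at 74727001, had 0.845 RPM in M64 and 0.246 and 0.204 in M23 and M60. The lower window of testis disease, at 74265001, had 0.0507 to 0.140 RPM (2 to 8 reads per animal) against 0.0537 to 0.487 in the 17. Its p of 0.000477 (edgeR's quasi-likelihood test) was smaller than the 0.00103 of the higher window of testis disease.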

How the data were processed

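Histone H3 ChIP-Seq of sperm was available for 67 animals, of which 66 have counts. The authors cleaned reads with Trimmomatic, mapped them to Rnor 6.0 with Bowtie2 at its default settings, converted them with SAMtools and counted them with MEDIPS, and the deposited counts per 1000 bp window are whole numbers without normalization. Read extension, the treatment of duplicates and any filter on reads with several matches at the counting step are not given in the sources used here. Columns with the authors' fold changes and p-values and 298 other per-sample columns (RPKM or repeated counts) were not used.

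RPM are counts per 1000000 of an animal's total over the table. The log2 ratio of the mean RPM of the cluster and of the rest of chromosome 3 was compared by permutation, exact where a group had under 10 animals and the enumeration was complete, otherwise with 100000 draws. Windows that averaged 10 reads or more were tested with edgeR 4.0.16 (R 4.3.3), TMM factors, a dispersion trend from 200000 random windows and Benjamini-Hochberg adjustment over all windows. Alternatives used chromosome 3 and 200000 random windows. DESeq2 1.42.0, scipy 1.17.1 and numpy 2.4.6 served the rest, and the tests were run on simulated data with known changes. The region is defined by position, but it, the lists and the tests were chosen with earlier results of these data known. Named windows were the 3 highest and 3 lowest levels, the extreme 100 kb bins, the 5 most overdispersed 10 kb bins and the window of smallest p per direction and comparison. Genes of odorant signalling and levels over receptor genes were not analysed here, since no full annotation of this build was used. Receptor gene names at single windows come from the study's lists of regions called for histone retention. Total counts were between 19909382 and 239635003 per animal, and a window of 10 reads has a large counting error. p-values measure the spread between animals. The methods put 10 libraries on a lane, and which animals shared one is not given in the sources used here.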

Additional observations from a re-analysis of the deposited data

Results flagged for a closer look

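In the window from 77439001 to 77440000, the strongest higher window of the lean comparison, M28 had 2.83 RPM while the other 4 lean animals had between 1.06 and 1.27. Its gap to the nearest animal was 0.879 of the whole range of the group, above Dixon's 95% critical value of 0.71 for 5 animals. This was 1 of 10 groups of values tested in this way. The window was picked by its p from the same animals, so the nominal rate of 1 flag in 20 does not hold for it. M28 is also 1 of the 2 animals with windows of the cluster raised at least 4 times over the median animal, and whether this accounts for the value was not tested.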

How the results depend on the processing

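The level of the cluster relative to the rest of chromosome 3 was -0.01 (log2) and kept this sign with the median over windows, but was 0.057 over windows that averaged 10 reads or more, 0.0040 without windows above 5 times the median, 0.017 without M28 and M48 and -0.046 against the 5 Mb on either side. TMM scaling cancels in this ratio. The ratio of median overdispersions stayed between 1.08 and 1.15 under 4 alternatives, was 1.54 in bins of 10 kb and turned to 0.847 when each animal was scaled to its own total of each part. Of the group differences in level, 50 values kept their sign and side of the threshold. Leaving out animals gave -0.31 to -0.13 for the lean phenotype, -0.0039 to 0.083 for kidney disease, 0.022 to 0.060 for testis disease and -0.0017 to 0.039 for late puberty. The difference turned for the lean phenotype without M28 and M42 (0.0077), for kidney disease without M57 to M69 (-0.027, with 1 animal left), for multiple disease without M28 and M48 (0.0082) and after the leading component (0.011), and for the lineage after the leading component (0.012). The cause was not tested.

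Counts of windows with p below 0.0001 were small and moved with the setting. Calls over all windows fitted, those of chromosome 3 and random others, are given in brackets. For the lean phenotype (2) the counts were 0 where windows had to average 20 reads (67 of 200573) or without M28 and M48 (53 of 334729). They were 1 of 4306 without M28 and M42 (20 of 334726), 4 of 4257 without M57 to M69 (208 of 337389) and 4 of 4419 with all 19 animals without disease (257 of 343931). By edgeR's exact test they were 5 of 4230 (168 of 161060 on chromosome 3). With each lean animal left out they were 0 to 17, with 8 of 4225 without M54 (282 of 331174), 3 of 4263 without M56 (167 of 334479) and 17 of 4248 without M66 (516 of 334126). Without a filter beyond 1 read they were 1 of 4707 for the lineage (66 of 362500) and 3 of 4699 for the lean phenotype (121 of 361731). With that setting they were 8 of 4699 for kidney disease (21 of 361736) and 6 of 4699 for multiple disease (12 of 361940). In each of these settings with a called window of the cluster, the share called in the cluster was above that of all windows fitted. It was only slightly above for the lineage and for the lean phenotype by edgeR's exact test. The cause was not tested. For kidney disease (0) the counts were 1 of 4380 with DESeq2 size factors (10 of 339900) and 1 of 4380 by edgeR's exact test (3 of 163161 on chromosome 3). They were 0 to 1 with each kidney disease animal left out, with 1 of 4379 without M23 (12 of 339565). For late puberty (1) they were 2 of 4356 by DESeq2's Wald test (12 of 162730 on chromosome 3). They were 0 to 1 with each late puberty animal left out, with 0 without M36 (15 of 338169) and without M38 (16 of 337399). The comparison of windows over receptor genes with the others was not run, because no full annotation of this build was used. No paired analysis was possible because no animal number occurs in more than 1 group. Depth limits single windows, since at a mean of 10 reads counting error alone is large, while levels of the whole cluster rest on at least 21576 reads per animal.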
